A study of Mus musculus with 28 samples.

Results

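The regions described here are 2665 stretches of the mouse autosomes that carried a called peak of 5-hydroxymethylcytosine (5hmC) in all 4 libraries from Tet2-deficient bone marrow cells and in neither wild-type library. They were found by merging the peaks of 6 5hmC lists on chromosomes 1 to 19 wherever peaks overlapped by at least 1 bp, which gave 205075 regions, of which the 2665 were 1.30%. They are called gained regions below, where the word stands for this pattern of calls and not for a measured rise. The members were thus chosen by the 5hmC peak calls themselves, and every 5hmC value below is a description without a test. The same merged regions held 2725 with a peak in both wild-type lists and in no knockout list, called lost regions, and 61524 with a peak in all 6 lists.

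The 5hmC libraries came from C57BL/6 mice of 6 to 10 weeks, from bone marrow cells named LK in the labels. They comprised 2 wild-type (WT), 2 Tet2 knockout (Tet2KO, written Tet2-/- in the series text) and 2 double knockout (DKO) libraries, the last lacking Tet1 and Tet2, so that loss of Tet2 is what the 4 knockout libraries share. From the same kind of cells, 5 lists of 5-methylcytosine (5mC) were used, 2 of WT, 2 of DKO and 1 of Tet2KO. 5hmC had been captured by chemical labelling (hMe-Seal) and 5mC by antibody (MeDIP-seq). The sources used here do not give how the genes were deleted, how many animals stand behind a library or whether any were pooled, so tests speak of the spread between libraries, which may be technical. RNA was not analysed here, so the cell type was not checked against markers.

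TET enzymes are dioxygenases that oxidise the methyl group of 5mC to 5hmC and further, and 5hmC is both an intermediate of demethylation and a lasting mark at enhancers and in the bodies of active genes. Tet2 is the family member most often mutated in blood disorders, and its loss in mice expands stem and progenitor cells, while Tet1 and Tet3 oxidise the same substrate. 5mC is therefore the substrate from which 5hmC at any position is made. A peak in either assay marks where captured DNA passed the caller's threshold, and it does not give the share of cytosines that carry the mark.

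The 5hmC lists held between 128026 and 143346 autosomal peaks, and the 5mC lists between 119159 and 146192. WT replicate 1 had the shortest 5hmC list and DKO replicate 2 the longest, and no read depth is known for any library, so the part of depth in the calls was not tested. Each peak has the authors' score, the lowest of which was 50 in every 5hmC list. Whether the scores of separate lists are on 1 scale is not known, so a peak is also placed by its percentile, the percentage of peaks of its own list with that score or less.

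Gained regions mostly consisted of 1 peak per library. Their width ran from 345 to 3017 bp with a median of 711 bp, beside 723 bp for all merged regions, 686 bp for lost regions and 1182 bp for regions with a peak in all 6 lists. In 2525 of them (94.7%) each of the 4 knockout lists had a single peak. These peaks lay on top of each other: 2610 regions had a stretch covered in all 4 lists at the same time, with a median of 426 bp or 61.0% of the region over all 2665. In the other 55, no base was covered in all 4 lists. The median stretch covered was 559 bp in Tet2KO replicate 1, 537 bp in Tet2KO replicate 2, 607 bp in DKO replicate 1 and 559 bp in DKO replicate 2.

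The peaks that made up the gained regions were among the weaker ones of their lists. The median score was 75.6 in Tet2KO replicate 1 and 79.9 in Tet2KO replicate 2. In DKO it was 76.6 in replicate 1 and 81.8 in replicate 2. The corresponding percentiles were 35.1 and 37.9 in Tet2KO and 34.5 and 39.5 in DKO, so the 4 libraries were close to each other and neither genotype stood above the other. Regions with a peak in all 6 lists had median percentiles from 72.4 to 75.3. Lost regions sat lower still in the WT lists, at 22.9 and 24.8. They needed a peak in 2 lists and none in 4, where gained regions needed a peak in 4 and none in 2. The 2 sets are therefore not compared on equal terms in strength.

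**Figure D1:**
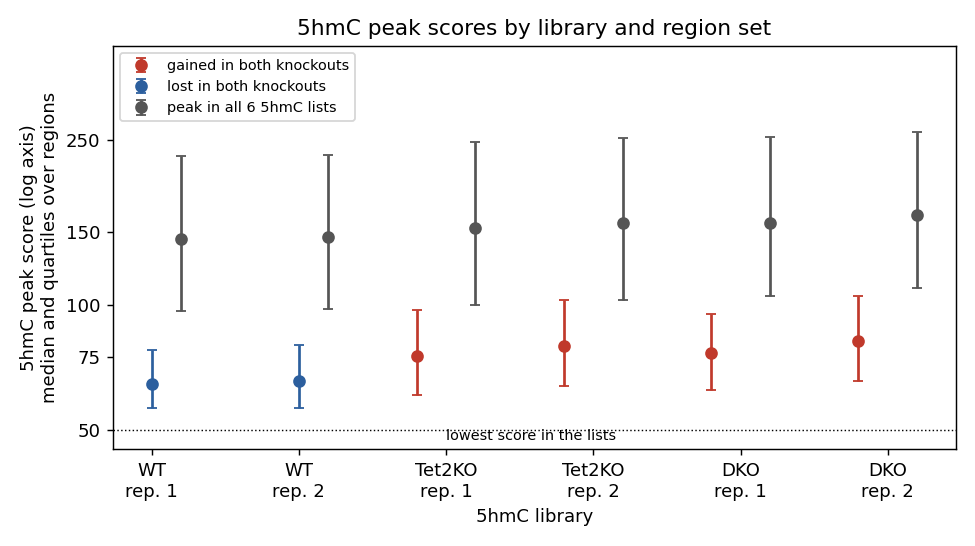
Score of the strongest 5hmC peak per region (vertical log axis) in each of the 6 5hmC libraries (horizontal axis), as the median (point) and quartiles (bars) over regions. In the 4 knockout libraries the gained regions have medians from 75.6 to 81.8, below the regions with a peak in all 6 lists (153 to 165), and the lost regions in WT are lower, at 64.6 and 65.5. Lost regions needed a peak in 2 lists and gained regions in 4.

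Strength was also shared unevenly between libraries. A total of 1466 gained regions (55.0%) had a score under 60 in at least 1 of the 4 lists, and 60 regions (2.25%) reached 100 in all 4. Across the 2665 regions the score in DKO replicate 1 was related to that in DKO replicate 2 with a Spearman rho of 0.304. For the Tet2KO pair rho was 0.0814, and for pairs of different genotypes it ran from 0.178 to 0.224. These correlations describe regions that were all chosen for passing the threshold in each list, and scores of different lists share the region and its width. The widths covered were more alike, with rho from 0.407 to 0.545. Both DKO percentiles lay above both Tet2KO percentiles in 442 regions, the opposite held in 445, and the ranges overlapped in 1778. The 2 orders were thus about equally frequent.

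The strongest gained region by its weakest list lay on chromosome 15 from 72663519 to 72665234 (mm9, 1716 bp), with scores of 293 and 199 in Tet2KO and 153 and 155 in DKO. It was the only gained region with a score of at least 150 in all 4 lists, and the nearest WT peak was 3460 bp away. A region on chromosome 7 from 86376698 to 86377630 (933 bp) had nearly the same score in every knockout library, at 157 and 141 in Tet2KO and 159 and 156 in DKO. Of its 933 bp, 796 were covered in all 4 lists. On chromosome 11 from 6448003 to 6448939 (937 bp) the scores were 151 and 139 in Tet2KO and 143 and 165 in DKO. On chromosome 9 from 78213431 to 78214380 (950 bp) they were 131 and 202 in Tet2KO and 173 and 159 in DKO, and 825 bp were shared by all 4 lists. These regions were thus in the upper part of every knockout list, between percentile 66.8 and percentile 91.1, without a call in either WT list. Of the 10 regions with the highest such weakest percentile, only that on chromosome 8 from 119075830 to 119076967 had a 5mC peak, and it had one in all 5 lists.

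The widest regions were less even. The widest gained region, on chromosome 15 from 82856540 to 82859556, had scores of 57.7 and 193 in Tet2KO and 134 and 134 in DKO. Its 3017 bp held 1, 2, 3 and 2 peaks in the 4 lists, and 955 bp were covered in all of them. The nearest WT peak lay 132 bp away. The region on chromosome 2 from 101621616 to 101624065 (2450 bp) had scores of 73.2 and 88.9 in Tet2KO and 56.2 and 156 in DKO and no base covered in all 4 lists. That on chromosome 18 from 74165842 to 74167894 (2053 bp) had a score of 297 in Tet2KO replicate 2 and of 72.6, 70.6 and 52.2 in the other libraries. Again no base was covered in all 4 lists. How far the peaks of some of the libraries overlapped in these last 2 regions was not examined.

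The rule has a sharp edge, and many regions lay close to it. At the lowest score inside it was a region on chromosome 8 from 70469088 to 70469687, with scores of 50.01 and 59.1 in Tet2KO and 52.7 and 70.9 in DKO. Regions with a peak in 3 of the 4 knockout lists and in no WT list numbered 5986, of which 2088 lacked only Tet2KO replicate 1, 1534 only Tet2KO replicate 2, 1352 only DKO replicate 1 and 1012 only DKO replicate 2. A further 7301 regions had a peak in all 4 knockout lists and in 1 WT list, and the median score of that WT peak was 73.1. The rule therefore took 2665 of the 71490 regions that had a peak in all 4 knockout lists.

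Most gained regions had a WT 5hmC peak within 5000 bp, a share that was not set beside that of all merged regions. The nearest WT peak was at a median distance of 1529 bp (quartiles 465 and 4523 bp), and 2056 regions (77.1%) had one within 5000 bp, where 86.1% of lost regions had a knockout peak, sought in 4 lists and not in 2. The distance to the nearest region with a peak in all 6 lists had a median of 4429 bp for gained and 4103 bp for lost regions. Some gained regions bordered directly on a WT peak: the closest, on chromosome 11 from 75609341 to 75610126, was 6 bp away from one and had scores of 99.1 and 110 in Tet2KO and 106 and 150 in DKO. Around the centres, peaks covered 92.6% and 91.9% of the central 400 bp in Tet2KO and 96.2% and 93.1% in DKO, and none of it in WT, as the rule requires. From 2 to 5 kb away the 6 libraries were alike, with 14.5% and 14.04% covered in the WT libraries, 13.5% and 12.7% for Tet2KO, and 14.6% and 13.9% for DKO. At these distances the WT libraries lay within the range of the knockout libraries. Coverage by WT peaks was higher around lost regions (16.5% and 16.1%) and around regions in all 6 lists (24.7% and 24.1%).

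**Figure D2:**
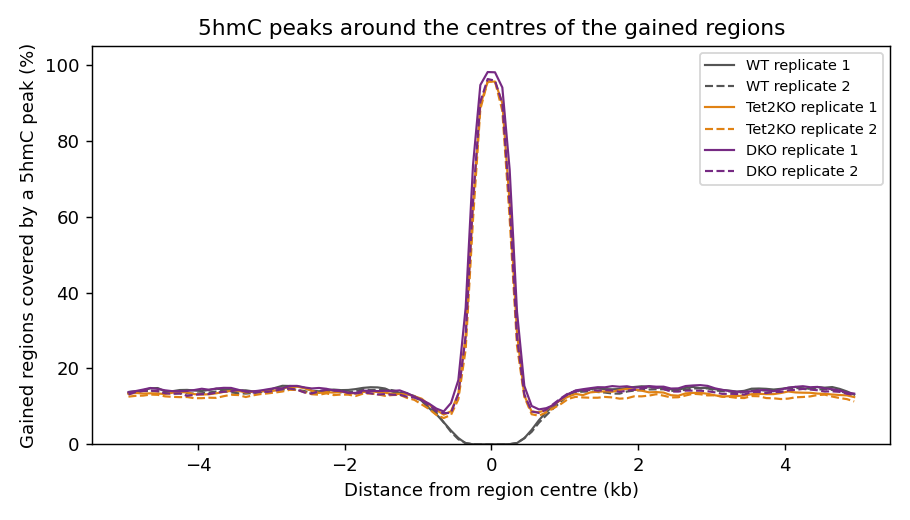
Percentage of the 2665 gained regions covered by a 5hmC peak (vertical axis) against the distance from the region centre in kb (horizontal axis), 1 line per library. The knockout lines rise to above 90% at the centre, where WT is at 0 by the choice of regions, and from 2 to 5 kb away the averages of the 6 lines lie between 12.7% and 14.6%.

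The gained regions were spread over all autosomes. They made up between 0.939% of the merged regions on chromosome 17 (95 regions) and 1.53% on chromosome 12 (131 regions), with 1.51% on chromosome 1 (207 regions). Lost regions made up 1.51% on chromosome 17 and 1.09% on chromosome 7. Along the chromosomes, divided into 5 equal parts, gained regions formed 1.37% of merged regions in the first and 1.19% in the last part. The median distance to the nearest other region of the set was 139724 bp for gained and 119643 bp for lost regions. Another of the set lay within 100 kb for 40.9% of gained and 45.4% of lost regions. Spacing was not tested against random placement. Of the 100 kb bins that held any gained region, 2054 had a single one, 246 had 2 and 33 had 3. In 5 bins there were 4. The first 3 of these by position were chromosome 1 from 183300001 to 183400000, chromosome 3 from 9800001 to 9900000 and chromosome 6 from 87600001 to 87700000, in which 4 of 26, 4 of 36 and 4 of 38 merged regions were gained and none was lost. In the chromosome 1 bin, the region from 183306339 to 183307257 had scores of 98.8 and 163 in Tet2KO and 159 and 204 in DKO, while that from 183302856 to 183303397 had only 73.4 and 90.7 in Tet2KO, with 50.8 and 70.6 in DKO.

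The 5mC lists were not used to choose the regions, and few gained regions had a 5mC peak in any of them. In WT, 141 gained regions (5.29%, 95% exact binomial interval 4.47 to 6.21%) had a 5mC peak in replicate 1 and 165 (6.19%, 5.31 to 7.17%) in replicate 2. In the single Tet2KO library 168 did (6.30%, 5.41 to 7.29%). In DKO there were 182 (6.83%, 5.90 to 7.85%) and 153 (5.74%, 4.89 to 6.69%). Lost regions had a 5mC peak in 29.6% to 34.0% of cases in the same 5 libraries, regions with a 5hmC peak in all 6 lists in 27.5% to 32.8%, and all merged regions in 18.3% to 21.4%. The gained regions were thus poor in 5mC peaks in every library, WT included, and their range did not overlap that of any of the other sets. The intervals treat regions as independent and cover counting error only.

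The mean share over the 5 libraries was 6.07% for gained and 31.8% for lost regions, a difference of -25.7 ± 1.26 percentage points (SD, n = 5 libraries), lower in 5 of 5 (exact two-sided sign-flip permutation p = 0.0625, adjusted p = 0.0833 over 4 tests). Against regions with a peak in all 6 lists the difference was -24.1 ± 1.45 points (SD, n = 5; exact permutation p = 0.0625, adjusted 0.0833). Against all other merged regions it was -13.9 ± 0.706 points (SD, n = 5; exact permutation p = 0.0625, adjusted 0.0833). With 5 libraries 0.0625 is the smallest p that the 32 sign patterns allow, so none of these tests could pass 0.05. The 3 differences share the gained regions, and the direction against lost regions was already known for these data when the comparison was set up.

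**Figure D3:**
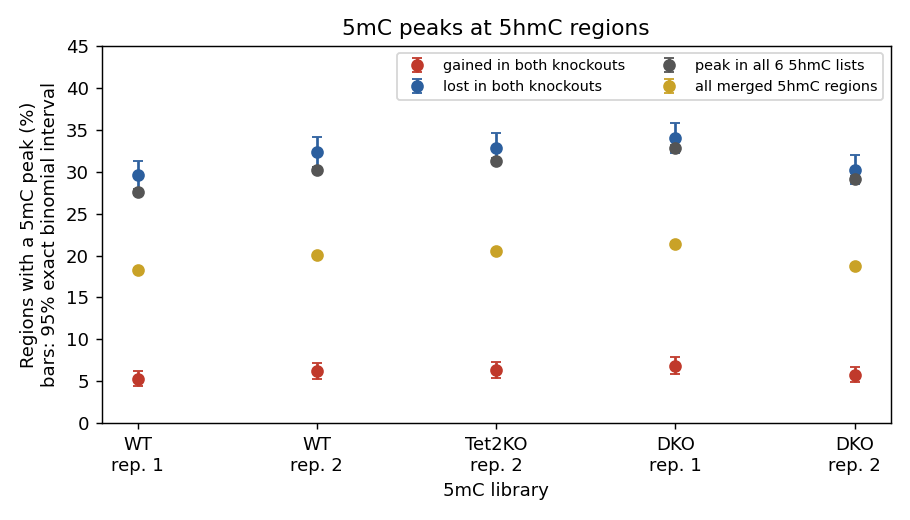
Percentage of regions with a 5mC peak (vertical axis) in each of the 5 5mC libraries (horizontal axis), with exact binomial 95% intervals as bars, for 4 sets of 5hmC regions. Gained regions lie between 5.29% and 6.83% in every library, below all merged regions (18.3% to 21.4%) and below the lost regions (29.6% to 34.0%).

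The gap was present at every width. Among the narrowest gained regions, up to 598 bp, a 5mC peak was found in a mean of 2.86% over the 5 libraries, and in 21.3% of lost regions of that width. At 937 bp and over the means were 7.75% for gained and 43.2% for lost regions. The share of gained regions stayed between 6.75% and 8.07% in the 3 widest of the 5 width classes, while that of lost regions went from 33.6% to 43.2% and that of regions in all 6 lists from 17.6% to 35.4%. The widest class has no upper limit and holds wider regions in the last set. With the compared regions weighted to the widths of the gained ones, the difference was -27.2 points against lost regions and -13.1 against all other merged regions. Against regions in all 6 lists it shrank from -24.1 to -14.01 points. Shares were close across 5hmC strength: in the weakest part of the gained regions, split into 3 by the lowest percentile, the median library share was 6.64%, and in the strongest 5.18%.

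**Figure D4:**
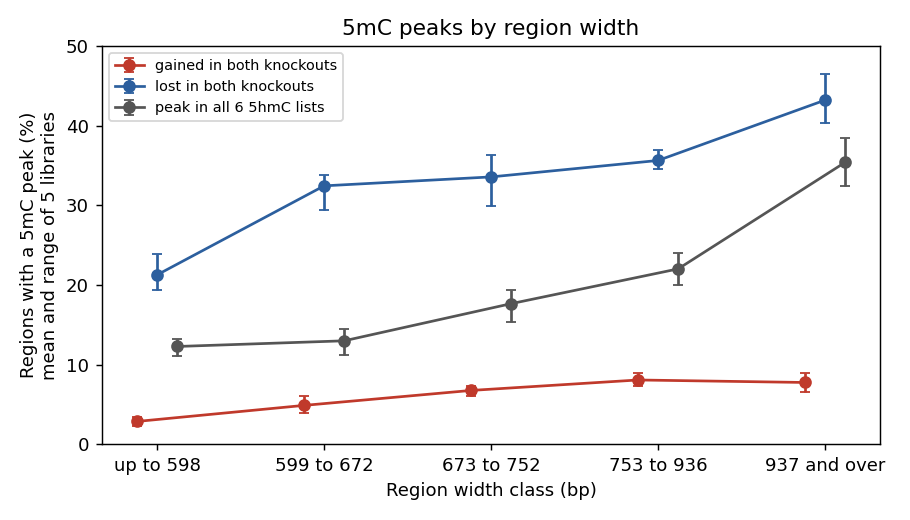
Mean percentage of regions with a 5mC peak over 5 5mC libraries (vertical axis; bars give the lowest and highest library) in 5 width classes in bp (horizontal axis), which divide the gained regions into 5 about equal parts. Gained regions are lowest in every class, from 2.86% to 8.07%, and lost regions are highest, from 21.3% to 43.2%.

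The shape of 5mC around the centres differed as well. In lost regions 5mC peaks were stacked at the centre, where 20.3% to 22.4% of the central 200 bp were covered in the 5 libraries, against 4.95% to 5.14% at 300 to 800 bp from the centre. Gained regions had 2.00% to 2.71% covered at the centre and 1.87% to 2.04% at 300 to 800 bp. The level went up to 3.16% to 3.28% from 1 to 2 kb and 3.31% to 3.55% from 2 to 5 kb. Lost regions had 5.04% to 5.21% and regions in all 6 lists 4.93% to 5.20% at 2 to 5 kb, so the gained regions also lay in surroundings with fewer 5mC peaks. The median distance to the nearest of the 5mC regions called in all 5 lists was 7310 bp for gained, 3707 bp for lost and 5402 bp for all merged regions. These medians include regions that touched such a 5mC region. Among the 2575 gained and 2097 lost regions that did not, the medians were closer, at 7670 and 6497 bp, with 7029 bp for all merged regions.

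**Figure D5:**
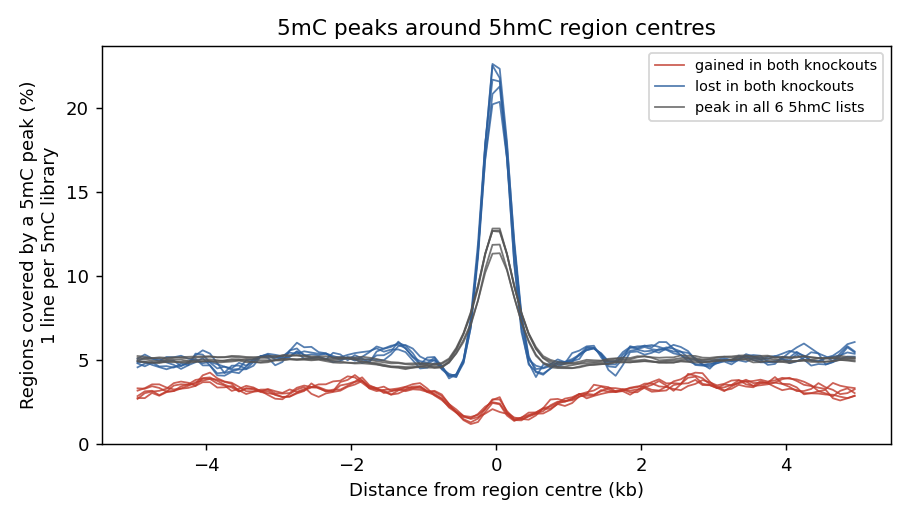
Percentage of regions covered by a 5mC peak (vertical axis) against the distance from the 5hmC region centre in kb (horizontal axis), 1 line per 5mC library and 1 colour per set. Lost regions peak above 20% at the centre, whereas gained regions stay under 3% there and are lower than both other sets out to 5 kb.

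Where a gained region did hold 5mC, the peak ranked near the middle of its list and lower than in lost regions. Of the 2665, 2370 (88.9%) had no 5mC peak in any of the 5 lists, 110 had one in a single list and 77 (2.89%, exact interval 2.29 to 3.60%) had one in all 5. Of lost regions 22.2% had one in all 5, and of all merged regions 12.4%. The median percentile of the 5mC peak within its own list was 46.8 and 48.7 in WT, 43.8 in Tet2KO and 44.8 and 47.8 in DKO, beside 65.8 to 68.5 for the 5mC peaks of lost regions. The 77 regions with constant 5mC did not differ much in 5hmC from the 2370 without any: their median scores were 75.6 and 76.05 in Tet2KO and 72.5 and 76.7 in DKO, against 75.5 and 79.955 in Tet2KO and 76.9 and 82.2 in DKO.

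Among gained regions with 5mC in all 5 lists, the widest ones differed in how WT and knockout compared. In the widest, on chromosome 15 from 82856540 to 82859556 (3017 bp), 5mC peaks covered 10.4% and 7.06% in WT, 7.33% in Tet2KO and 5.97% and 11.1% in DKO. On chromosome 19 from 7260336 to 7262616 (2281 bp), 5mC peaks covered 18.6% and 32.4% in WT, 16.5% in Tet2KO and 33.0% and 27.8% in DKO. That region lay 187 bp from a WT 5hmC peak and had no base covered by 5hmC in all 4 knockout lists. On chromosome 16 from 21402056 to 21403824 (1769 bp), 5mC peaks covered 34.9% and 22.9% in WT, 28.4% in Tet2KO and 28.9% and 30.1% in DKO. In each of these, the WT and the knockout values overlapped. On chromosome 4 from 139007302 to 139009022 (1721 bp), coverage was 23.5% and 18.7% in WT and lower in each knockout library, at 11.2% for Tet2KO and 15.8% and 17.6% for DKO. More 5mC was seen in the region on chromosome 11 from 60882170 to 60883084 (915 bp), 7 bp from a WT 5hmC peak, with 61.3% and 54.4% covered in WT, 62.6% in Tet2KO and 45.7% and 70.2% in DKO.

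It was then asked whether 5mC itself differed between genotypes at the gained regions. The share with a 5mC peak was 5.74 ± 0.637% in WT (SD, n = 2), 6.30% in the Tet2KO library and 6.29 ± 0.769% in DKO (SD, n = 2). The 3 knockout libraries exceeded WT by 0.550 percentage points on average, which did not pass (exact two-sided permutation p = 0.400, adjusted 0.400 over 4 tests; the smallest p that 10 assignments allow is 0.100). DKO replicate 2 was below WT replicate 2, so the groups overlapped. All merged regions had 19.2 ± 1.21% in WT (SD, n = 2) and 20.1 ± 1.84% in DKO (SD, n = 2).

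For single regions, the fraction covered by 5mC peaks was fitted with limma over the 46553 merged regions that had 5mC in at least 2 libraries, 185 of them gained. No region passed at an adjusted p of 0.05 in DKO against WT (0%, smallest adjusted p = 0.192), in the lone Tet2KO library, which has no spread of its own, against WT (0%, 0.365) or in all knockout libraries against WT (0%, 0.236). The fit had only 2 residual degrees of freedom, so the lack of calls does not show that 5mC was equal. At an unadjusted p under 0.05, 19 of the 185 gained regions (10.3%) were found in DKO against WT, 13 with more and 6 with less 5mC in DKO, beside 3351 of all regions tested (7.20%). For the Tet2KO library the counts were 19 gained regions (10.3%) and 2899 of all regions tested (6.23%), and for all knockout libraries 21 (11.4%) and 3517 (7.55%). Of the gained regions in these last 2 contrasts, 8 had more and 11 less 5mC in Tet2KO, and 12 had more and 9 less in all knockout libraries. A region could enter the fit through WT or DKO alone, which by itself favours a small p. How many regions of each count did so was not examined, so the counts give no support for a difference. The share of gained regions was not tested against that of all regions, and its direction turned with 5mC peaks of a score of at least 100, where it was 4.71% of 85 gained regions beside 6.60% of all regions in DKO against WT. The 3 contrasts share the WT libraries, and the Tet2KO arm is 1 library that the fit assumes to vary like the others.

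The gained regions with the smallest p included both directions. On chromosome 12 from 87438845 to 87439416 (572 bp), 5mC peaks covered 57.2% and 52.3% in WT, 56.8% in Tet2KO and none in either DKO library (limma, adjusted p = 0.192). On chromosome 6 from 99746322 to 99746838 (517 bp), 60.5% and 51.5% were covered in WT and none in any knockout library (limma, adjusted p = 0.192). The opposite was seen on chromosome 16 from 14314668 to 14315420 (753 bp), with none in WT, 30.9% in Tet2KO and 42.2% and 41.3% in DKO (limma, adjusted p = 0.192). The fit asked for 5mC in at least 2 libraries. The regions on chromosomes 12 and 6 entered it only through libraries other than DKO, and that on chromosome 16 only through knockout libraries. They were also picked by their p, so they are examples and give no support for a difference. In all, 7 gained regions (0.263%) had a 5mC peak in all 3 knockout lists and in no WT list, where 0.450% of all merged regions did. The reverse held for 4 gained regions (0.150%), where 0.260% of all merged regions did.

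Demanding stronger 5hmC peaks replaced the regions, raised their 5mC share and kept the gap to lost regions. When a score of 100 or more was required, 1745 regions met the rule, of which 60 overlapped one of the 2665, and 1684 (96.5%) held a WT peak under that minimum. Between 8.19% and 9.68% of these 1745 regions had a 5mC peak in the 5 libraries. The 1347 lost regions at that minimum had 42.2% to 46.8%. At a score of at least 200, none of the 909 regions overlapped a region of the main set, and all 909 held a WT peak under that minimum. Their 5mC shares were 14.2% to 21.1%, and those of lost regions were 57.8% to 65.9%. All merged regions of the main set, with a median width of 723 bp, had 18.3% to 21.4%. Those of 937 bp and over had 29.6% to 34.8%. The share of all merged regions at a minimum of 200 was not computed. The median width of gained regions was 916 bp at the minimum of 100 and 1221 bp at 200.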

How the data were processed

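Peak lists of 6 5hmC and 5 5mC libraries were used, 1 list per library and without pooling, as the authors deposited them. The authors' score in each list, whose peak names are those of MACS, has the form of 10 times the negative log10 of a p-value. The submitters' processing notes name MACS 1.4.2, Bowtie 0.12.9, CASAVA 1.4, Cuffdiff 2.2.1, TopHat2 2.0.8 and the mm9 build, without saying what each was used for. The sources used here give no control library, duplicate removal or read depth, and depth and background can change how many peaks are called and how wide they are. Groups came from the titles. The Tet2KO 5mC library is number 2 by its title, while its list is named 1.

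Regions were merged in Python 3.11.15, and positions are 1-based in mm9. The fraction of each region covered by 5mC peaks was transformed by the arcsine of its square root and fitted with limma 3.58.1 in R 4.3.3 (trend, 3 genotypes, Benjamini-Hochberg). Counting and fit were checked on simulated data. The members and comparison sets were chosen with earlier results of these data known. Regions named are the 10 widest, the 10 with the highest lowest percentile, the 5 widest with 5mC in all 5 lists, the 5 with the smallest p, 3 bins, and those at the edge of the rule, of which the text gives a part. Genes and sequences of mm9 were not used here, so the planned description by gene and base content was not run, and the RNA-seq samples were not analysed here.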

Additional observations from a re-analysis of the deposited data

How the results depend on the processing

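The number of gained regions depended on how peaks were admitted. It was 1745 with a 5hmC score of at least 100 and 909 with at least 200, and leaving out 1 of the 6 5hmC libraries, which relaxes the rule, gave from 3722 to 6466 regions. Without WT replicate 1 there were 6355, without WT replicate 2 6466, without Tet2KO replicate 1 4811, without Tet2KO replicate 2 4245 and without DKO replicate 1 4088. Equal numbers of top peaks per list gave 2179 regions, of which 2005 overlapped a region of the main set. Of the 41 regions that the naming rules on width, strength, 5mC lists, bins and the edge of the rule select, 35 stayed members there, and 10 at a score of at least 100. For the same 2665 gained regions, the lower 5mC share than in lost regions kept its sign. It ran from -27.2 points with width weighting to -17.8 with 5mC scores of at least 100, and from -26.1 to -25.4 without each 5mC library. With 5hmC scores of at least 100 it was -35.3 points, for a mostly different set, of which 60 of 1745 regions overlapped a region of the main set. At 5hmC scores of at least 200, only the shares were computed, 14.2% to 21.1% against 57.8% to 65.9%. Against regions in all 6 lists the difference ran from -29.2 to -14.01, the last with width weighting, and against all other merged regions from -17.1 to -8.87, in settings applied to these 2 comparisons after seeing the data. The -29.2 and the -17.1 came from the mostly different set at 5hmC scores of at least 100. Knockout minus WT stayed above 0, from 0.100 to 1.0006 points without each library. Replicate numbers are not said to mark a shared animal or batch, and WT and DKO libraries of a number did not deviate together (r = -0.0437 over 46553 regions). Within the numbers the difference was 0.685 points as a replicate block, with 1.54 for number 1 and -0.169 for number 2. No gained region was called for 5mC coverage in limma in the alternatives with all 5 libraries, the block included, or without the Tet2KO library. At an unadjusted limma p under 0.05, the share of gained regions in these alternatives was lowest with 5mC scores of at least 100. There it was 4 of 85 (4.71%) beside 6.60% of all regions. It was highest without the Tet2KO library, at 19 of 166 (11.4%) beside 8.02% of all regions. The largest count, 54 of 630 (8.57%) beside 7.12% of all regions, came with 1 kb on either side. Fits without a WT or DKO library leave 1 library in that group, assumed to vary like the others, so their counts of regions are not given.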

Other observations

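The X chromosome lies outside the rule. Of its 1342 merged 5hmC regions, 19 (1.42%) had a peak in all 4 knockout lists and in no WT list, 13 (0.969%) had the opposite pattern, and 135 (10.1%) had a peak in all 6 lists. On the autosomes these shares were 1.30%, 1.33% and 30.0%.

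Regions next to the rule had 5mC shares between those of the gained regions and of all merged regions. The 5986 regions with a peak in 3 knockout lists and in no WT list had a 5mC peak in 7.12% and 7.55% in WT, 7.99% in Tet2KO and 8.47% and 7.22% in DKO. The 7301 regions with a peak in all 4 knockout lists and in 1 WT list had 9.29% and 10.6% in WT, 11.03% in Tet2KO and 11.5% and 9.49% in DKO.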
